A study of Mus musculus with 12 samples.

Results

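The posterior genes of the HoxA and HoxD clusters were followed across 3 Hotair genotypes in mouse tail tip fibroblasts. They are the 10 rows named Hoxa9, Hoxa10, Hoxa11, Hoxa13, Hoxd8, Hoxd9, Hoxd10, Hoxd11, Hoxd12 and Hoxd13, chosen by symbol from a table of 24132 symbols, 4 from HoxA and 6 from HoxD. Hox genes encode homeodomain transcription factors that sit in 4 clusters, and within a cluster the genes at the 5′ end are used later in development and more caudally and distally. Genes of the same number in different clusters are paralogues, and those of the highest numbers pattern the limb, the urogenital tract and the tail. Hotair is a long non-coding RNA transcribed from within the HoxC cluster. It was described in human fibroblasts as a repressor in trans of HoxD genes, so the level of posterior HoxA and HoxD genes in cells without it bears on that question.

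The cells were fibroblasts grown from the tail tips of neonatal mice backcrossed to C57BL6. The groups were Hotair wildtype, heterozygous and knockout, with 2 poly(A) RNA-seq libraries each, and the allele itself and the number of animals behind a library are not given in the labels. No treatment is named. Nothing in the labels says that the 2 libraries of a genotype came from separate animals or cultures, so every p-value measures only the spread between libraries, which may be technical. Levels are in RPKM, reads scaled to the length of the gene model and the depth of the library, and read numbers are equivalents of 37 aligned positions recovered from the deposited values. Depth was 27885174 to 33246296 reads in the wild type and heterozygous libraries and 46006228 to 48051934 reads in the knockout libraries, so the knockout libraries were 1.64 times as deep as the wild type ones. Hotair levels were 0.247 and 0.183 RPKM for the wild type libraries, 0.213 and 0.172 RPKM for the heterozygous ones and 0 for both knockout libraries. In reads, Hotair had 16.2 and 11.4 in wild type and 15.8 and 11.9 in heterozygous libraries, which do not separate these genotypes. The 12 fibroblast marker genes summed to 5592 to 5995 RPKM in every library. Abundant genes such as Vim, at 2678 RPKM in wild type and 2157 RPKM in knockout, set that sum. Single markers moved within it in both directions. Thy1 averaged 190 RPKM in wild type and 94.8 RPKM in knockout, and Lum 2.31 and 13.6 RPKM.

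The posterior genes fell into 3 ranges of level. Hoxa10 and Hoxa11 stood at 3.97 to 5.64 RPKM in all libraries, with 264 to 669 reads each. Hoxa9, Hoxa13, Hoxd8 and Hoxd9 stood between 0.374 and 1.98 RPKM, with 14.9 to 121 reads. Hoxd10, Hoxd11 and Hoxd13 lay at or below 0.190 RPKM, and Hoxd12 was listed at 0 in all 6 libraries. These 4 genes are near the counting floor, taken as 3 reads. Hoxd11 had 1 read in a wild type library, Hoxd13 had 2 reads in each wild type library, and Hoxd10 and Hoxd13 stayed under 20 reads in all 6 libraries. Intervals given for reads pool the 2 libraries of a genotype, so they cover counting error only and leave out variation between libraries. No molecular identifiers are named in the labels, so copies of a molecule may be counted as separate reads.

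**Figure D1:**
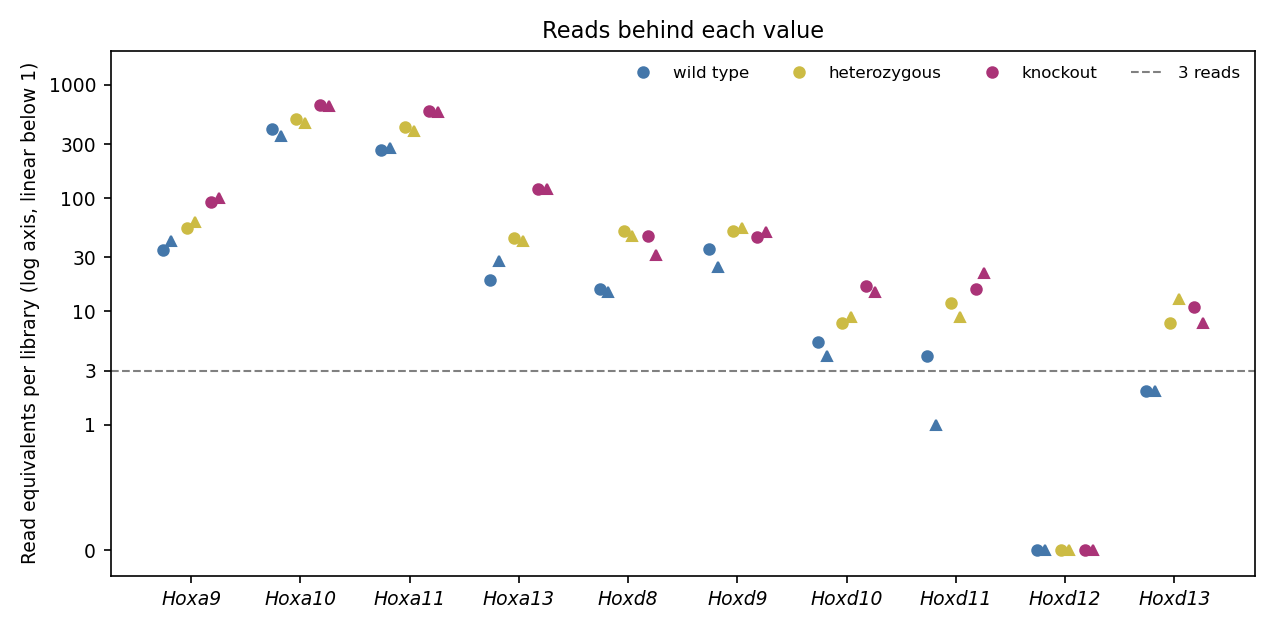
Read equivalents of 37 positions per library for the posterior HoxA and HoxD genes, on an axis that is logarithmic above 1 and linear below it, with the floor of 3 reads as a dashed line, colours for the 3 genotypes, and circles and triangles for libraries 1 and 2. Hoxa10 and Hoxa11 lie at 264 reads or more in each library, while Hoxd10, Hoxd11 and Hoxd13 lie at 22.0 reads or fewer.

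Within wild type, the order by mean RPKM was Hoxa10, Hoxa11, Hoxa13, Hoxa9, Hoxd9, Hoxd8, Hoxd10, Hoxd13, Hoxd11 and Hoxd12. Hoxa10 and Hoxa11 overlapped there, as did Hoxa13, Hoxa9 and Hoxd9, and Hoxd13 and Hoxd11. In heterozygous and in knockout cells Hoxa11 lay above Hoxa10 with no overlap. The neighbours that overlapped were Hoxa9 with Hoxd9 and Hoxd10 with Hoxd13 in heterozygous cells, and Hoxd8 with Hoxd9 and Hoxd11 with Hoxd13 in knockout cells. Hoxd8 came after Hoxd9 in wild type and was the third of the members in heterozygous cells. Hoxa13 was the third in knockout cells.

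**Figure D2:**
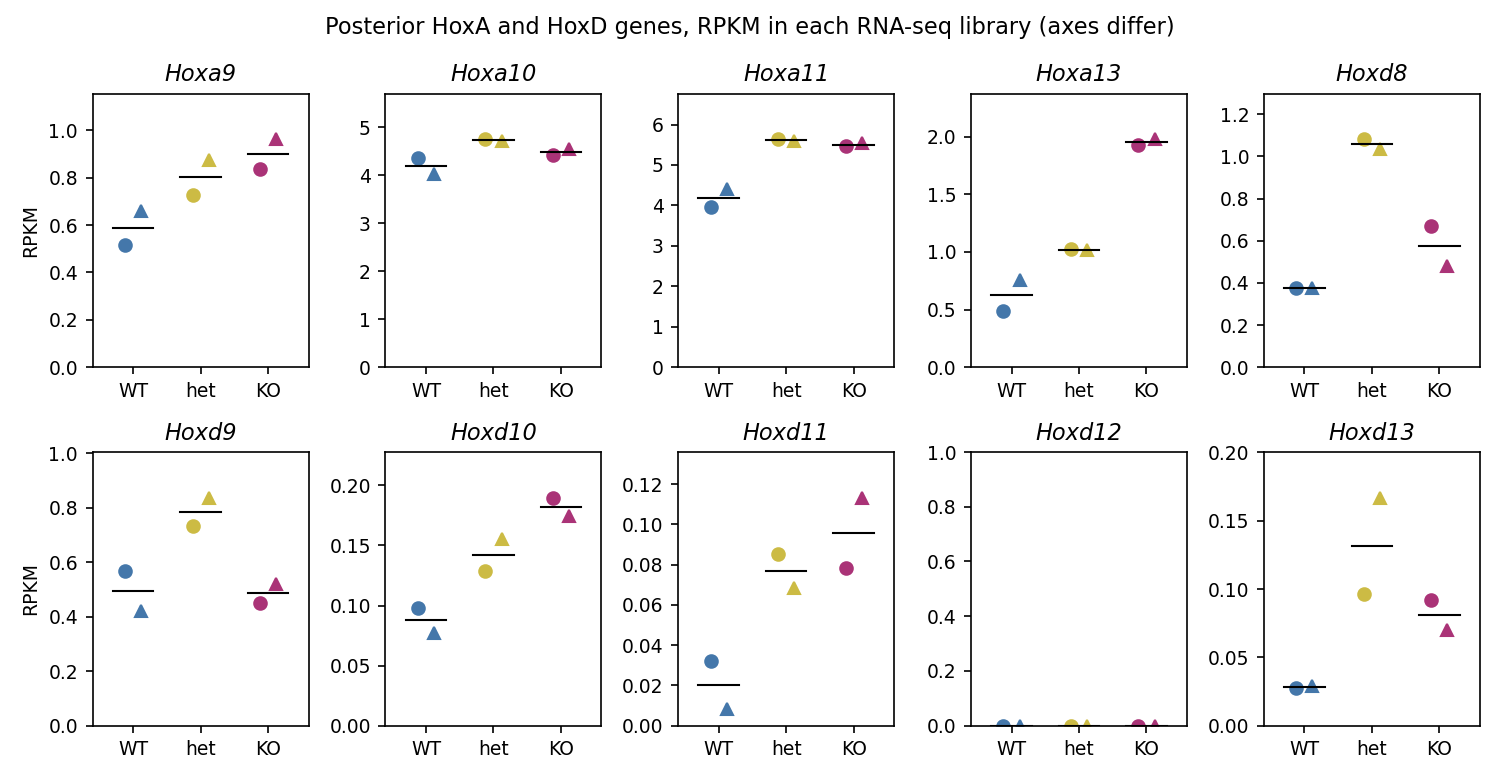
RPKM in each of the 6 libraries for each posterior HoxA and HoxD gene, on a linear axis of its own for each gene that starts at 0, with circles and triangles for libraries 1 and 2 of wild type (WT), heterozygous (het) and knockout (KO) and a bar for their mean. Hoxa13 runs from 0.492 RPKM in wild type to 1.98 RPKM in knockout, while Hoxd8 and Hoxd9 are highest in the heterozygous libraries.

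Promoter windows are shown for Hoxa13, highest in knockout, Hoxa11, higher in both mutant genotypes, and Hoxd8, highest in heterozygous cells. The window of Hoxd13, the HoxD paralogue of Hoxa13, is shown beside them. RefSeq windows (GRCm38.p6, 250 bases before to 50 after a start) matched all 10 members, and all 4 are printed 5′ to 3′ on the gene's strand. Capitals mark matches to TATAAA (the TATA box), CCAAT (the CCAAT box) or GGGCGG (the GC box) on either strand, overlapping matches included. The windows are chr6:52260831-52261130 on the minus strand for Hoxa13, chr2:74667975-74668274 on the plus strand for Hoxd13, chr6:52245761-52246060 on the minus strand for Hoxa11 and chr2:74704365-74704664 on the plus strand for Hoxd8.
Hoxa13: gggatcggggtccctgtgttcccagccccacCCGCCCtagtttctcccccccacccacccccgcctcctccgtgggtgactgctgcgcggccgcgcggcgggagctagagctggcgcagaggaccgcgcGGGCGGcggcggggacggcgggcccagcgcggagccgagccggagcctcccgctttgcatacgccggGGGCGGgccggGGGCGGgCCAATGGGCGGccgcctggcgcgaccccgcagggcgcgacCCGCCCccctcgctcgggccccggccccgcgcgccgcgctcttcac
Hoxd13: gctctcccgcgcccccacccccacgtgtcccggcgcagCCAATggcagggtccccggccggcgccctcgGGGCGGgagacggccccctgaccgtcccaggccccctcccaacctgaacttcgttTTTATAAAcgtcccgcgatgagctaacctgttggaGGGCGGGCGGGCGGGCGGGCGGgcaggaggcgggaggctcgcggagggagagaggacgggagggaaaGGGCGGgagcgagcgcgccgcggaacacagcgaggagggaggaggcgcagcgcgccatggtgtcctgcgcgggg
Hoxa11: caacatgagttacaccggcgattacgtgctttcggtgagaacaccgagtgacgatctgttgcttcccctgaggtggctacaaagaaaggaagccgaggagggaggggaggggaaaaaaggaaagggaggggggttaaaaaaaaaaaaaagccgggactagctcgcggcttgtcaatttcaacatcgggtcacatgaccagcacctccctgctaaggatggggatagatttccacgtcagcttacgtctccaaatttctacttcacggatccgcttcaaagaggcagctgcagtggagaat
Hoxd8: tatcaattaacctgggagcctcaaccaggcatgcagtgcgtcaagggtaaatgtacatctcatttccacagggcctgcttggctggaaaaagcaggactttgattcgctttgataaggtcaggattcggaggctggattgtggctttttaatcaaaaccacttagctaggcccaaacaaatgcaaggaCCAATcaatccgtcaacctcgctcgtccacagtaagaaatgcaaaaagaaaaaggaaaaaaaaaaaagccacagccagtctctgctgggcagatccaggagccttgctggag
The Hoxa13 window held 45 CG pairs and the Hoxd13 window 37, against a median of 7 over all 32851 windows. The windows of Hoxa11 and Hoxd8 held 15 and 6. GGGCGG matched 6 times in the Hoxa13 window and 7 times in that of Hoxd13, and 35.7% of all windows hold it. CCAAT, which 37.4% of windows hold, matched 1 time each in Hoxa13, Hoxd13 and Hoxd8. TATAAA, held by 13.6%, matched 2 times, both in Hoxd13. The paralogues Hoxa13 and Hoxd13 both had CG-rich windows and stood at different levels, 0.623 ± 0.187 RPKM against 0.0280 ± 0.00118 RPKM in wild type (SD, n = 2).

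Hoxa13 rose from wild type to heterozygous and again to knockout cells. This gene is needed for the autopod and the hindgut and genital end of the body axis. Its levels were 0.492 and 0.755 RPKM in wild type, 1.02 and 1.02 RPKM in heterozygous and 1.93 and 1.98 RPKM in knockout libraries. The genotypes did not overlap, and the heterozygous libraries lay between the other two groups. Reads were 19.1 and 27.6 in wild type, 44.5 and 41.6 in heterozygous and 121 and 119 in knockout. The pooled RPKM ratio of knockout to wild type was 3.12 (95% exact interval 2.27 to 4.36). On the log2(RPKM + 1) scale, which understates changes of low genes, Hoxa13 rose by 0.87 ± 0.08 (SE) from wild type to knockout (limma, adjusted p = 6.1e-05) and by 0.55 ± 0.08 from heterozygous to knockout (adjusted p = 0.00119), and both calls held in all 14 alternatives that tested the gene. The rise from wild type to heterozygous was 0.32 ± 0.08 (adjusted p = 0.0128) and lost its call under quantile normalization (0.15, adjusted p = 0.150); it was 0.20 without wild type 1 (adjusted p = 0.0413). Hoxa13 passed the filter of 1 RPKM in 2 libraries only through its heterozygous and knockout libraries.

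Hoxa11 rose in both mutant genotypes. It patterns the forearm and the uterus, and it overlaps an antisense transcript. Wild type libraries had 3.97 and 4.39 RPKM, heterozygous 5.64 and 5.58 RPKM and knockout 5.46 and 5.55 RPKM. Every heterozygous and knockout library was above both wild type libraries. The difference was 0.35 ± 0.05 for heterozygous (adjusted p = 0.00105) and 0.33 ± 0.05 for knockout against wild type (adjusted p = 0.000806), and both kept their call in all 15 alternative settings. Knockout and heterozygous differed by -0.024 ± 0.05 (adjusted p = 0.718). The row for the antisense gene Hoxa11as gave 3.99 and 4.44 RPKM in wild type, 5.42 and 5.38 RPKM in heterozygous and 5.63 and 5.53 RPKM in knockout. The ratio of Hoxa11as to Hoxa11 was 0.962 to 1.03 in the 6 libraries. The libraries mark the strand, but no source used here states whether it was used in counting, so reads of the pair cannot be told apart.

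Hoxa10 changed little. This gene acts in the lumbar spine, the upper limb segments and the uterus. It was at 4.35 and 4.03 RPKM in wild type, 4.75 and 4.70 RPKM in heterozygous and 4.42 and 4.54 RPKM in knockout. The heterozygous libraries were the highest, and the groups did not overlap. Hoxa10 was 0.14 ± 0.05 higher in heterozygous than in wild type (adjusted p = 0.0375), a call that was lost in 10 of 14 alternatives, among them leaving out any single library but wild type 1 (adjusted p = 0.0634 to 0.164). Knockout against wild type gave 0.08 ± 0.05 (adjusted p = 0.175) and -0.064 after quantile normalization.

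Hoxa9, a gene of the lower trunk with roles in blood progenitors, was under the filter. It was at 0.516 and 0.660 RPKM in wild type, 0.727 and 0.877 RPKM in heterozygous and 0.837 and 0.963 RPKM in knockout. Both mutant genotypes lay above wild type and overlapped each other. With no filter the knockout against wild type difference was 0.26 ± 0.07 (adjusted p = 0.0352), called in 4 of 13 alternatives and lost without any single library (adjusted p = 0.0511 to 0.183), and the heterozygous difference was 0.18 ± 0.07 (adjusted p = 0.122).

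In HoxD, Hoxd8 and Hoxd9 were highest in the heterozygous cells. Both genes act in patterning of the trunk. Hoxd8 was at 0.376 and 0.374 RPKM in wild type, 1.08 and 1.03 RPKM in heterozygous and 0.669 and 0.481 RPKM in knockout. The 3 genotypes did not overlap, and the knockout libraries lay between the other groups. Heterozygous exceeded wild type by 0.58 ± 0.07 (adjusted p = 0.000508), with a pooled RPKM ratio of 2.79 (1.85 to 4.33). Hoxd8 fell from heterozygous to knockout by 0.39 ± 0.07 (adjusted p = 0.00329, ratio 0.544, 0.398 to 0.741). Both calls held in all 12 alternatives that tested the gene, which left the test without either heterozygous library. Knockout against wild type was 0.19 ± 0.07 (adjusted p = 0.0431), was called in 4 of 12 alternatives, was not called without wild type 1 (adjusted p = 0.110), wild type 2 (0.114) or knockout 1 (0.318, difference 0.11), and turned to -0.12 (adjusted p = 0.166) after quantile normalization. Hoxd8 passed the filter only through the 2 heterozygous libraries.

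Hoxd9 was at 0.570 and 0.421 RPKM in wild type, 0.732 and 0.837 RPKM in heterozygous and 0.450 and 0.522 RPKM in knockout. Wild type and knockout overlapped, and both lay below heterozygous. With no filter, heterozygous exceeded wild type by 0.26 ± 0.06 (adjusted p = 0.0363, called in 3 of 13 alternatives) and knockout was 0.26 ± 0.06 below heterozygous (adjusted p = 0.0319, called in 8 of 13). The former call was lost without any single library but wild type 1 (adjusted p = 0.0932 to 0.161), the latter without any single heterozygous or knockout library (0.0855 to 0.178). The knockout against wild type difference was -0.0082 ± 0.06 (adjusted p = 0.948; -0.24, adjusted p = 0.0127, under median scaling), and the pooled ratio was 0.978 (0.701 to 1.37).

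The genes at the 5′ end of HoxD, which shape the autopod, were read only a few times per library. Hoxd10 was at 0.0981 and 0.0775 RPKM in wild type, 0.129 and 0.155 RPKM in heterozygous and 0.190 and 0.174 RPKM in knockout. The genotypes did not overlap and ran in that order, on 5.4 and 4.0, 7.9 and 8.9, and 16.9 and 14.9 reads. The knockout to wild type ratio was 2.17 (1.01 to 5.18), and the heterozygous to wild type ratio was 1.69 (0.711 to 4.29), whose interval holds no change. Hoxd11 was at 0.0321 and 0.00851 RPKM in wild type, 0.0853 and 0.0686 RPKM in heterozygous and 0.0785 and 0.113 RPKM in knockout. Its reads were 4.0 and 1.0, 11.9 and 9.0, and 15.9 and 22.0. The mutant libraries were above wild type and overlapped each other, with ratios to wild type of 4.64 (1.83 to 15.1) for knockout and 3.75 (1.38 to 12.7) for heterozygous. The RefSeq spans of Hoxd10 and Hoxd11 overlap, so the authors' counting could split or share reads between them.

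Hoxd13, the last gene of the HoxD cluster, was at 0.0272 and 0.0289 RPKM in wild type, 0.0965 and 0.167 RPKM in heterozygous and 0.0917 and 0.0697 RPKM in knockout. Its reads were 2.0 and 2.0, 8.0 and 12.9, and 10.9 and 8.0. The heterozygous libraries were the highest and wild type the lowest, with a ratio to wild type of 4.69 (1.58 to 18.8) for heterozygous and 2.90 (0.965 to 11.7) for knockout. With no filter, limma gave 0.12 ± 0.02 for Hoxd10 (adjusted p = 0.00688) and 0.10 ± 0.02 for Hoxd11 (adjusted p = 0.0164) in knockout against wild type, and 0.14 ± 0.03 for Hoxd13 in heterozygous against wild type (adjusted p = 0.0305). Subtracting each library's median, which moved the median of all genes above 0 from 0.019 to -0.22 in knockout against wild type, turned the values of Hoxd10 and Hoxd11 to -0.11 and -0.13. Quantile normalization ended the calls of Hoxd10 (0.060, adjusted p = 0.0654) and Hoxd11 (0.074, adjusted p = 0.0520). The call of Hoxd11 was also lost without wild type 2 (adjusted p = 0.0849) or knockout 2 (0.0751), and that of Hoxd13 without any single wild type or knockout library (0.0904 to 0.131). Hoxd12, listed at 0, gave no value to fit.

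**Figure D3:**
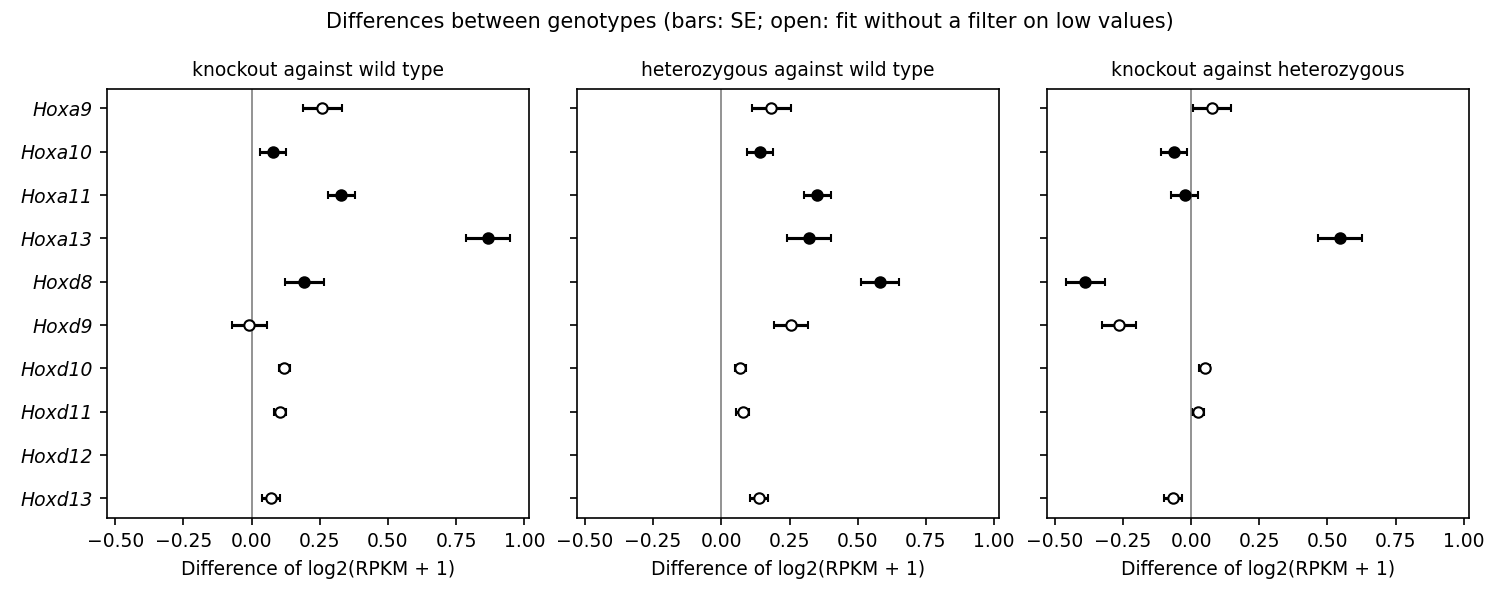
Log2(RPKM + 1) differences with their standard errors for the posterior HoxA and HoxD genes above 0, in the 3 comparisons of genotypes, with filled points for the 4 genes that passed the filter and open points for those fitted with no filter, whether called or not, and a line at 0. Hoxa13 is highest in knockout against wild type at 0.87, and Hoxd8 is highest in heterozygous against wild type at 0.58 and lowest in knockout against heterozygous at -0.39.

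Over the genotypes, 3 of the 4 members tested were called higher in knockout than in wild type and 0 lower, where 67.2% of all 10897 genes tested were called, 40.6% higher and 26.6% lower. Against wild type, heterozygous cells had all 4 tested members called higher, where 52.6% of genes were called, 35.5% higher and 17.1% lower. From heterozygous to knockout, Hoxa13 was called higher and Hoxd8 lower, where 51.8% were called, 26.4% higher and 25.4% lower. Of these 4 genes, Hoxa13 and Hoxd8 entered the test through the groups where they were high, so the counts are a description. Of all calls, 60.4% were higher in knockout and 67.5% in heterozygous than in wild type, which became 46.7% and 51.1% after quantile normalization and 47.2% and 45.5% after median scaling. The median differences over the 4 were 0.26, 0.34 and -0.044 in the 3 comparisons, where the medians over all genes tested were 0.059, 0.069 and -0.0014. With no filter, of the 9 members above 0, 5 were called in knockout against wild type (44.2% of all genes above 0), 5 in heterozygous against wild type (29.6%) and 3 in knockout against heterozygous (31.3%).

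The libraries were also compared by whether their ranges overlapped. This looser criterion needs no fit and separated more genes than the fit called, among all genes above 0 as among the members. Of the 9 members, 8 lay higher in both knockout libraries than in both wild type ones and 0 lay lower, with Hoxd9 overlapping, where 43.6% of all genes above 0 lay higher and 25.0% lower. All 9 lay higher in both heterozygous libraries than in wild type, where 39.5% lay higher and 20.4% lower. From heterozygous to knockout, Hoxa13 and Hoxd10 lay higher and Hoxa10, Hoxa11, Hoxd8, Hoxd9 and Hoxd13 lay lower, of which the fit with no filter called Hoxa13, Hoxd8 and Hoxd9, where 34.7% lay higher and 28.2% lower. Under median scaling 4 of the 9 had a positive value in knockout and 7 in heterozygous against wild type, and under quantile normalization 6 and 9. These counts mix fits: members that passed the filter were read from the filtered fit, the others from the fit with no filter. In knockout against wild type, median scaling moved the median of all genes from 0.059 to -0.021 in the former and from 0.019 to -0.22 in the latter. The counts under median scaling therefore depend on the fit used. The comparisons of knockout and of heterozygous with wild type share its 2 libraries.

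The paralogues in HoxB and HoxC, in the same libraries, stood higher in group 13. Hoxb13 was at 19.6 RPKM in wild type, 23.6 RPKM in heterozygous and 32.6 RPKM in knockout, and Hoxc13 at 8.48, 9.34 and 9.43 RPKM, against 0.623, 1.02 and 1.95 RPKM for Hoxa13. Hoxb13 ran in the same order of genotypes as Hoxa13 and rose by 0.71 ± 0.04 in knockout against wild type (adjusted p = 5.1e-06). Hoxc12 was at 15.5, 13.5 and 13.1 RPKM while Hoxd12 was at 0. Hoxc8 had at most 0.0728 RPKM on average in any genotype, below Hoxd8 throughout. In the HoxB list 9 of 10 genes were tested, with 7 higher and 1 lower in knockout than in wild type, and in HoxC 6 of 9 were tested, with 1 higher and 2 lower, where 40.6% of all genes tested were called higher and 26.6% lower. Hoxb5 and Hoxc6 passed the filter only through mutant libraries. The other 10 HoxA and HoxD genes, with Hoxa7 the highest at up to 0.929 RPKM, did not pass the filter.

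**Figure D4:**
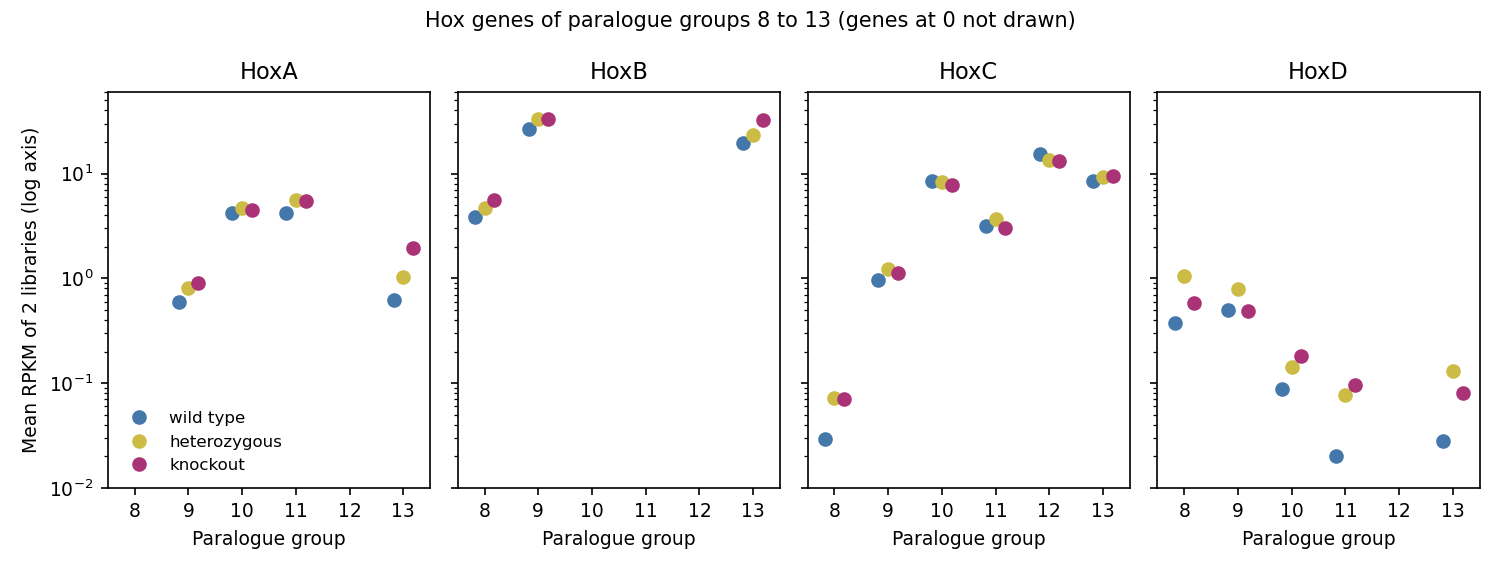
Mean RPKM of each Hox gene of paralogue groups 8 to 13 in the 4 clusters and 3 genotypes, on a log axis, with 1 point for the mean of 2 libraries and genes at 0 not drawn. The HoxB and HoxC paralogues of group 13 lie above Hoxa13, and Hoxd13 lies lowest of that group.

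By Euclidean distance between centred log2(RPKM + 1) profiles over the 6 libraries, a description of likeness over only 3 genotypes, Hoxa13 was nearest to Fmr1 (0.0818), Paxbp1 (0.105) and A4galt (0.114). The nearest Hox gene to Hoxa13 was Hoxb13 (0.231). Hoxd8 was nearest to Tm7sf3 (0.117), and the nearest Hox gene to it was Hoxc6 (0.197). The nearest Hox gene to Hoxa11 was Hoxb9 (0.156). Hoxa10 was nearest to Slc35f6 (0.0296), and the nearest Hox gene to it was Hoxc13 (0.0946).

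Cofactors of Hox proteins, flanking genes and described targets were read from lists, and their counts stand beside 67.2% of all genes tested called in knockout against wild type, 40.6% higher and 26.6% lower. The TALE homeodomain cofactors, which bind DNA together with Hox proteins, were tested for 8 of 9 genes, of which 4 rose and 1 fell in knockout against wild type, a share near that of all genes. Among them Meis2 rose by 0.38 ± 0.06 and Meis3 fell by 0.20 ± 0.04. Of listed genes from the regions flanking HoxA, 6 of 10 in the table were tested, with 5 higher and 1 lower in knockout than in wild type. They include the RNA-binding Hnrnpa2b1 at 0.54 ± 0.03, which is not an immediate neighbour of the cluster, while Evx1, the gene next to Hoxa13, was listed at 0. Of those flanking HoxD, 6 of 9 were tested, with 3 higher and 0 lower. Mtx2, the closest of the tested genes to the cluster in RefSeq, gave -0.019 ± 0.06 (adjusted p = 0.801), and the more distant Hnrnpa3 rose by 0.82 ± 0.03. Evx2, next to Hoxd13 and closer than Mtx2, was listed at 0. Of 11 genes described in limb buds as targets of Hoxa13 or Hoxd13, 2 passed the filter. Both are ephrin receptors: Epha3 rose by 0.81 ± 0.09 and Epha4 by 0.40 ± 0.05 in knockout against wild type. Epha3 passed the filter only through its knockout libraries. The targets under the filter moved in both directions. Shox2 averaged 0.593 RPKM in wild type, 1.008 RPKM in heterozygous and 0.2998 RPKM in knockout, and Bmp7 0.0971, 0.2048 and 0.0529 RPKM. Aldh1a2 was also lower in knockout, at 0.3591, 0.3006 and 0.2025 RPKM in that order. Higher in knockout than in wild type were Enpp2 (0.0669, 0.1980 and 0.2653 RPKM), Bmp2 (0.00671, 0.2543 and 0.1307 RPKM) and Epha7 (0.1428, 0.1840 and 0.2205 RPKM). Hand2 and Sostdc1 averaged at most 0.0619 RPKM in any genotype, and Shh was at 0. Of 22 limb and caudal patterning genes, 9 were tested, with 6 higher and 2 lower in knockout, and 7 higher and 0 lower in heterozygous, than in wild type, where 35.5% of all genes were higher and 17.1% lower in heterozygous cells. Fgf10, a limb bud growth factor, averaged 1.17 RPKM in wild type, 4.74 RPKM in heterozygous and 2.88 RPKM in knockout cells, highest in heterozygous cells as Hoxd8 was.

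Markers of other cell types also moved with genotype. The 13 macrophage markers in the table summed to 8.98 to 10.5 RPKM in wild type, 7.42 to 8.39 RPKM in heterozygous and 53.6 RPKM in both knockout libraries, with none at 0 throughout. Their sum was highest where Hoxa13 was, but it was lower in heterozygous than in wild type libraries, where Hoxa13 was higher in heterozygous ones. The 7 Schwann cell markers summed to 26.5 to 26.7 RPKM in wild type, 32.3 to 33.3 RPKM in heterozygous and 15.2 to 15.7 RPKM in knockout, with none at 0 throughout. Their sum was highest where Hoxd8 was, but it was lower in knockout than in wild type libraries, where Hoxd8 was higher in knockout ones. The 6 chondrocyte markers summed to 3.49 to 3.71 RPKM in wild type and 6.93 to 7.57 RPKM in the mutants, as Hoxa11 was higher in both. Most of that sum was Sox9, at 3.41 RPKM in wild type, 6.08 RPKM in heterozygous and 5.75 RPKM in knockout. Acan, Col2a1 and Comp also rose, from low levels, while Col9a1 and Matn1 stayed near 0. The 6 muscle precursor markers summed to 0.872 to 1.35 RPKM in wild type and heterozygous and 2.92 to 3.38 RPKM in knockout, with Myod1 and Myf5 at 0. Nearly all of that sum was Des, at 1.14 RPKM in wild type, 0.815 RPKM in heterozygous and 3.01 RPKM in knockout. The 8 keratinocyte markers summed to 0.449 to 0.901 RPKM and the 6 endothelial ones to 0.160 to 0.264 RPKM over the 6 libraries, with Emcn at 0. Their part in the results was not tested, and in bulk RNA fewer cells of a type and less RNA per cell cannot be told apart.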

How the data were processed

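RNA from 6 libraries, 2 a Hotair genotype, was analysed, and the 6 ChIP libraries were left out (not analysed here). Libraries were poly(A)-selected and made by a dUTP method, per the labels' protocols. Reads were handled with TopHat on mm9, per the submitters' processing notes; for the annotation, filters and use of strand: not given in the sources used here. The authors deposited 1 RPKM value per symbol and library, a unit identified from the deposited values, with column names that point to coverage tracks. A step per library and gene lengths were recovered from these values; a read grid of 37 positions gave lengths that matched RefSeq for 202 of 586 genes compared, the next best grid 140. Reads can be fractional.

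Values were tested as log2(RPKM + 1) with limma 3.58.1 (R 4.3.3), trended eBayes over 3 group means (3 residual degrees of freedom), Benjamini-Hochberg adjustment and a threshold of 0.05, for the 10897 genes at 1 RPKM or more in 2 libraries. Members under that filter were read from a fit of the 18888 genes above 0. Ratio intervals are 95% exact binomial intervals on pooled reads. The fit was tested on simulated data with changes placed only in genes averaging 2 RPKM or more in wild type. Among the members only Hoxa10 and Hoxa11 reach that level, so the simulation does not cover the others. Named were all 10 members, Hotair, up to 4 called genes of smallest p per list, and the 3 genes and 1 Hox gene nearest in profile. Hox paralogues, marker genes, Mtx2, described targets under the filter and listed genes at 0 were named beyond this after their values were seen. Members and lists were chosen with earlier results of these data known. Replicate numbers did not pair libraries: same-numbered deviations correlated at -0.0882, -0.0620 and 0.0648. Some named genes are not reported here.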

Additional observations from a re-analysis of the deposited data

How the results depend on the processing

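Alternatives covered pseudocounts of 0.1 and 5, filters, scaling, an untrended variance, the 2 genotypes alone, the replicate block and leaving out each library. In knockout against wild type 3 members were called; 5 were with no filter and 1 at a filter of 5 RPKM, where 4754 genes were called against 7324. In heterozygous against wild type 4 members were called, 2 after quantile normalization and 1 at 5 RPKM. In knockout against heterozygous 2 were called, and 0 at 5 RPKM, where only Hoxa11 was tested. Leaving out 1 library in turn, the genes called ranged from 6016 to 7371, from 4711 to 5173 and from 3922 to 5689, and the members called from 2 to 3, from 2 to 4 and from 1 to 2. Without either heterozygous library, Hoxd8 left the test. Quantile normalization reversed Hoxd8 in knockout against wild type to -0.12. Median scaling with no filter reversed Hoxd10 to -0.11, Hoxd11 to -0.13 and Hoxd13 to -0.16 in knockout against wild type. In knockout against heterozygous it reversed Hoxd10 to -0.062 and Hoxd11 to -0.087. This scaling shifts all genes of a library by the same amount. It moved the median over all genes above 0 from 0.019 to -0.22 and from 0.0049 to -0.11 in these comparisons. Why the library medians differ was not tested. With the replicate block, 7253, 5564 and 5448 genes and 3, 3 and 2 members were called, with Hoxa10 lost in heterozygous against wild type (adjusted p = 0.0535); with no filter the block ended both calls of Hoxd9 (0.0673 and 0.0609) and that of Hoxd13 (0.0506) and added Hoxa9 in heterozygous against wild type (0.0356). Depth limits Hoxd10 to Hoxd13, where 1 to 22.0 reads or none stood behind each value.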

Other observations

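Of the 39 Hox genes in the table, 19 passed the filter. In knockout against wild type 11 of these were called higher and 3 lower, where 40.6% of all genes tested were called higher and 26.6% lower. In heterozygous against wild type 13 were called higher and 0 lower, where 35.5% were called higher and 17.1% lower. Hoxa13, Hoxd8, Hoxc6 and Hoxb5 passed the filter only through mutant libraries, where they were higher than in wild type, so the counts are a description. The 10 more anterior HoxA and HoxD genes ranged from 0 to 0.929 RPKM. Hoxa7 averaged 0.516 RPKM in wild type, 0.843 RPKM in heterozygous and 0.857 RPKM in knockout cells.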
